A study of Homo sapiens with 6 samples.

Results

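The major histone gene cluster lies on the short arm of human chromosome 6. It was taken here as all accessible regions in 2 windows of the hg19 build, chr6:26000000-26300000 and chr6:27050000-27900000, which together span 1.15 Mb. The assay was ATAC-seq. A transposase inserts sequencing adapters where DNA is exposed, and a peak is a stretch where tagged reads pile up above their surroundings. Merging the peaks of 6 lists gave 70 regions in the windows, of 32037 regions on chromosomes 1 to 22 and X, with 32 regions in the first window and 38 in the second. The members were all regions in these windows, taken by position, but the windows were chosen with earlier results of these data known.

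The cells were CCRF-CEM, an established human T lymphoblast leukaemia line, either the SLFN11-positive parent or an SLFN11 knockout made from it. SLFN11 is a protein that is recruited to stressed replication forks. Cells of both genotypes received DMSO, the solvent, or camptothecin, a topoisomerase I poison, at 100 nM for 2 h or 4 h. Each of the 6 groups had 1 library, and whether the knockout line is 1 clone is not given in the sources used here.

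The placement of the lists is uncertain and decides every statement on treatment. Each list carries a code, WT, WT2 or WT4 for the parent and KO, KO_2 or KO_4 for the knockout. In 0 of 6 cases did that code match the code in the title of the sample under which the list is recorded. By the record, WT2 and KO_2 are the DMSO lists, WT4 and KO_4 the 2 h lists, and WT and KO the 4 h lists. By the title codes, WT and KO are DMSO, WT2 and KO_2 are 2 h, and WT4 and KO_4 are 4 h. Lists are therefore named by code, and both readings are given where a treatment is named. The parent and knockout lists that face each other are the same under both placements (WT with KO, WT2 with KO_2, WT4 with KO_4).

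Replication-dependent histone genes encode the core histones H2A, H2B, H3 and H4, around which DNA is wrapped, and the linker histone H1, which binds where DNA enters and leaves the nucleosome. They are short genes without introns, are transcribed mainly while DNA is being copied, and give messages that end in a stem-loop in place of a poly(A) tail. Camptothecin blocks replication forks, so the cluster belongs to the genes whose use is tied to the process that the drug disturbs. Between TRIM38 and OR2B2, genes chosen here to bracket the cluster, the RefSeq annotation of GRCh38.p14 lists 53 protein-coding histone genes. They comprise 6 H1, 11 H2A, 14 H2B, 10 H3 and 12 H4 genes. The same stretch, which includes the sequence between the windows, holds 100 tRNA genes and 15 other protein-coding genes. A peak in the windows thus need not belong to a histone gene, but how many of these genes lie in the windows was not counted. The peaks are on hg19 and that annotation is not, so no gene was placed on a peak.

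Histone genes often face away from each other across a short shared promoter. In the RefSeq order, 12 pairs of neighbouring histone genes have a gene on the minus strand followed by one on the plus strand. Of these, 8 pair an H2A with an H2B gene, such as H2BC4 with H2AC6. The distance between their starts was not measured, so a shared promoter is not shown for any pair. Promoters of the cluster are shown for 1 gene of each family, the first by symbol with an entry, as the 120 bases before the start (RefSeq, GRCh38.p14, 5′ to 3′ on the gene's strand). They show what the starts of this cluster look like, and no peak is tied to any of them. Capitals mark the CCAAT box, the core TATAAA of the TATA box, and the octamer ATTTGCAT known from H2B promoters, read on either strand.
H1-1: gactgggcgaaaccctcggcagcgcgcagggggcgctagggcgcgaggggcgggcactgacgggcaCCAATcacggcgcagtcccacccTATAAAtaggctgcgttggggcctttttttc
H2AC4: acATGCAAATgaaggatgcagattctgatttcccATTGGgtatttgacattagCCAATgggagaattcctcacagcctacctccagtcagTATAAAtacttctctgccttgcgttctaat
H2BC3: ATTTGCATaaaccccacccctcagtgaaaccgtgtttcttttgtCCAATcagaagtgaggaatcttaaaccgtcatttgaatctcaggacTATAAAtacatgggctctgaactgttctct
H3C1: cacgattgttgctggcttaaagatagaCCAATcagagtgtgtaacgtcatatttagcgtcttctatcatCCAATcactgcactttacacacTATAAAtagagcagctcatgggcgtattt
H4C2: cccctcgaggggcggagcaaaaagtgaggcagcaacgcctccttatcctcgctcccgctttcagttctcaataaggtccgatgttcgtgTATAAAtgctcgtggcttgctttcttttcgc

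The families differed in these letters. Over the 250 bases before the start, on both strands, TATAAA was found in 31 of the 48 histone genes with a promoter entry (64.6%), against 10.7% of all 35116 promoter entries. CCAAT was found in 41 of 48 (85.4%, against 32.0%), in every H1, H2A, H2B and H3 gene with an entry but in 3 of 10 H4 genes. ATTTGCAT was found in 20 of 48 (41.7%, against 1.63%), of which 11 were H2B, 8 were H2A and 1 was H3. These matches describe sequence only and say nothing of binding.

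Depth was judged from the deposited values, since read totals were not used here. The fold enrichment and the p-value of an entry together give the pileup at its summit, which is the number of extended reads over that base, and the local background expected there. The fold is the pileup plus 1 divided by the background plus 1, so the 3 quantities are not independent of each other. In each list, at least 99.95% of the recovered pileups came out whole (tolerance 0.02). The lowest background in a list rises with read number and read extension, and it was similar in all of them, 1.22, 1.29 and 1.26 reads in WT, WT2 and WT4, and 1.27, 1.37 and 1.36 in KO, KO_2 and KO_4. With 1 library in each group there is no replicate spread, and no test of a difference between lists was run. All intervals are 95% intervals (Wilson for shares, Poisson for counts, order statistics for medians) and cover counting error only, since amplified reads are not independent molecules and neighbouring regions are not independent.

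The windows held more peaks in 2 of the 3 parent lists than in any other list. There were 41 peaks in WT (Poisson interval 29.4 to 55.6), 65 in WT2 (50.2 to 82.8) and 59 in WT4 (44.9 to 76.1). The knockout lists lay between, with 49 peaks in KO (36.3 to 64.8), 54 in KO_2 (40.6 to 70.5) and 52 in KO_4 (38.8 to 68.2). Neighbours in this order have overlapping intervals, and so do the lowest and the highest. Set against the other peaks of chromosome 6 the number hardly varied, since the windows took between 4.39% and 4.94% of the chromosome's peaks in every list. The number of peaks in the windows thus moved with the length of the list. With every list shortened to its 14205 most significant peaks, the windows held 41, 44 and 45 peaks in WT, WT2 and WT4. KO, KO_2 and KO_4 then held 35, 36 and 40, so they no longer lay between the parent lists.

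At full list length, the parent lists differed in peak number mainly in the second window. Whole lists held 14205, 23665 and 21617 peaks in WT, WT2 and WT4, and 19289, 20894 and 19167 in KO, KO_2 and KO_4. The first window, 300 kb long, held 25, 29 and 27 peaks in WT, WT2 and WT4, and 28, 30 and 30 in KO, KO_2 and KO_4. The second window, 850 kb long, held 16, 36 and 32 peaks in WT, WT2 and WT4, and 21, 24 and 22 in the knockout lists. The first window was the denser one in every list, with between 83.3 and 100.0 peaks per Mb, against 18.8 to 42.4 in the second and 16.0 to 30.7 in the 750 kb between them. In all lists merged, the longest stretch without a peak was 40.7 kb in the first window and 200 kb in the second, from chr6:27156877 to chr6:27356388.

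Peak width separated the lists more than peak number did. Peaks of the windows covered 54.8 kb in WT2 and 50.9 kb in WT4, against 20.7 kb in WT and 24.6, 27.4 and 22.4 kb in KO, KO_2 and KO_4. Their median width was 739 bp in WT2 (560 to 1048) and 811 bp in WT4 (685 to 941). In the other lists it was 485 bp in WT (323 to 604), 464 bp in KO (400 to 526), 513 bp in KO_2 (430 to 599) and 388 bp in KO_4 (352 to 463). Peaks outside the windows were narrower in all 6 lists, with medians of 353, 452 and 487 bp in WT, WT2 and WT4, and 374, 381 and 351 bp in KO, KO_2 and KO_4.

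Peaks of at least 1000 bp show the same in counts. WT2 held 25 of them among its 65 peaks in the windows (38.5%, Wilson interval 27.6 to 50.6%), and WT4 held 19 of 59 (32.2%, 21.7 to 44.9%). WT held 1 of 41, KO 3 of 49, KO_2 1 of 54 and KO_4 2 of 52. Over whole lists such peaks made up 6.95% in WT2, 7.83% in WT4 and between 1.77% and 2.98% in the other 4. Peaks with more than 1 summit were 58.5% of the windows' peaks in WT2 and 62.7% in WT4. They were 36.6% in WT and 30.8% to 38.9% in the knockout lists. Among the other peaks they were 28.5% in WT2, 28.3% in WT4, 21.8% in WT and 23.7% to 25.1% in the knockout lists.

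The fold enrichment, in contrast, was not high in the windows. The authors' fold over local background had a median of 4.79 in WT, 5.22 in WT2 and 5.30 in WT4, and of 5.32, 5.07 and 5.12 in KO, KO_2 and KO_4. Each value lay below the median of the other peaks of its own list, at percentiles 29.7, 32.1 and 32.0 of WT, WT2 and WT4 and at percentiles 41.9, 37.4 and 39.3 of KO, KO_2 and KO_4. Peaks in the top 10% of their list by fold numbered 2 in WT, 1 in KO_2 and 0 in each of the other lists. Peaks of the windows were thus wider than the rest and of lower fold in all 6 lists.

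Read region by region, WT2 and WT4 held most of the 70 regions and WT the fewest. WT2 held 64 (91.4%, interval 82.5 to 96.0%, against 72.9% of all regions of the union) and WT4 held 57 (81.4%, 70.8 to 88.8%, against 66.8%). WT held 37 (52.9%, 41.3 to 64.1%, against 43.3%). KO held 43 (61.4%, against 58.9%), KO_2 held 47 (67.1%, against 63.8%) and KO_4 held 44 (62.9%, against 58.3%). All 6 lists shared 35 regions, or 50% (38.6 to 61.4%), against 34.6% over the union, and 20 of these lay in the first window and 15 in the second. No region of the windows was held by all 3 lists of one genotype and by none of the other. Over the union there were 99 such regions for the parent and 229 for the knockout.

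**Figure D1:**
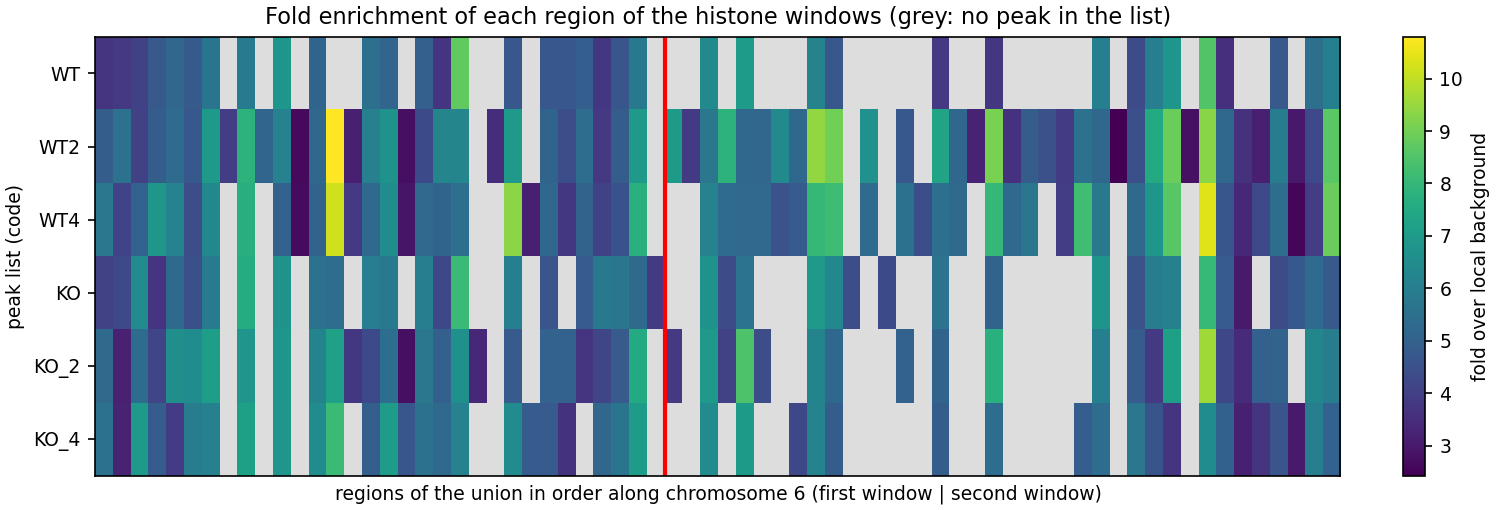
Fold enrichment over local background (colour scale) of the 70 regions of the histone windows, in order along chromosome 6 on the horizontal axis, in each of the 6 lists on the vertical axis. Grey marks a list without a peak there, and the red line parts the 32 regions of the first window from the 38 of the second. Most gaps of WT and of the knockout lists lie right of the red line.

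Regions held by all 6 lists were ranked by their lowest fold over the lists. In the second window, chr6:27805793-27806856 had the highest such value, with folds of 8.53, 9.30 and 10.4 in WT, WT2 and WT4, and of 8.02, 9.61 and 6.48 in KO, KO_2 and KO_4. It had a single summit in 5 of the lists, and its width was 823, 1057 and 1011 bp in WT, WT2 and WT4, and 700, 674 and 571 bp in KO, KO_2 and KO_4. In the first window, chr6:26103914-26104976 had the highest such value, with folds of 5.89, 7.85 and 7.66 in the parent lists and 7.60, 6.80 and 7.18 in the knockout lists, in the same order. Its summit pileup was 17 reads in WT, 69 in WT2 and 75 in WT4, against 24, 23 and 20 in KO, KO_2 and KO_4. WT2 and WT4 were about alike here and stood well above the other 4 lists.

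The widest regions of the first window had several summits. The region chr6:26215810-26217942 was 910 bp wide in WT, 2133 bp in WT2 and 1850 bp in WT4, and 772, 698 and 841 bp wide in KO, KO_2 and KO_4. It had 1 summit in WT, 7 in WT2 and 3 in WT4. Its pileup was 41, 113 and 112 reads in WT, WT2 and WT4 and 34, 33 and 24 reads in KO, KO_2 and KO_4, while its fold was highest in WT, at 8.77, and 6.22 and 5.52 in WT2 and WT4. The region chr6:26157296-26159134 was 651 bp wide in WT, 1735 bp in WT2 and 1709 bp in WT4, and 959, 840 and 853 bp wide in the knockout lists. Its summits numbered 2, 8 and 7 in the parent lists and 3, 2 and 3 in the knockout lists. The third of the widest regions, chr6:26123094-26124990, was 1033, 1897 and 1666 bp wide in the parent lists and 1403, 1068 and 957 bp in the knockout lists. In each of the 3 regions WT2 was the widest list and WT4 the next.

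Similar values were seen at the widest regions of the second window. The region chr6:27099467-27101418 was 783, 1915 and 1731 bp wide in WT, WT2 and WT4, with pileups of 35, 103 and 129 reads. In KO, KO_2 and KO_4 it was 989, 1036 and 1070 bp wide, with pileups of 42, 49 and 36 reads. The region chr6:27113600-27115519 was 788, 1889 and 1863 bp wide in the parent lists and 1004, 994 and 865 bp in the knockout lists. Both regions were narrower in WT than in any knockout list. A contrasting case is chr6:27440243-27441218, at the end of the long stretch without a peak in WT and KO. It was 752, 726 and 810 bp wide in WT, WT2 and WT4, although its pileup was 15 reads in WT, 42 in WT2 and 35 in WT4.

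Regions that single lists lacked or held alone were of low pileup outside WT2 and WT4. A region held by the other 5 lists and absent from WT, chr6:26171939-26172656, had the highest fold of the windows in WT2, at 10.8, and a fold of 10.2 in WT4. In KO, KO_2 and KO_4 its fold was 5.43, 7.23 and 8.13, at pileups of 15, 22 and 22 reads against 55 in WT2 and 58 in WT4. The other region that WT alone lacked, chr6:27833740-27835434, was 1445 bp wide in WT2 and 1687 bp in WT4, with 6 and 7 summits, but 684, 651 and 173 bp wide in the knockout lists. Its folds were low in all 5 lists, between 3.01 and 3.62. KO alone lacked chr6:26250121-26250981, and KO_4 alone lacked chr6:26251675-26252273. Outside WT2 and WT4, the pileups at these regions were between 12 and 22 reads, so their absence from a list turns on few reads.

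WT2 alone held 8 regions (11.4% of 70, against 7.69% of the union). The highest fold among them was 5.14, at chr6:26115640-26115860, which rested on a pileup of 11 reads. KO alone held 3 regions (4.29%, against 3.63%), KO_2 alone 1 (1.43%, against 4.68%), WT4 alone 1 (1.43%, against 6.14%), and WT and KO_4 none. A further 7 regions were held by WT2 and WT4 and no other list (10.0%, against 4.53% of the union), a group picked out after its values were seen, and 6 of these lay in the second window. The widest, chr6:27470522-27471631, was 1049 bp wide in WT2 and 703 bp in WT4, with pileups of 22 and 19 reads. The other 6 had pileups from 11 to 50 reads. 

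The effect of camptothecin on the parent cells was read by asking which peaks of one list met a peak of another, at an overlap of at least 1 bp. Every one of the 41 WT peaks of the windows met a WT2 peak (0% without, interval 0 to 8.57%, against 7.45% of the whole list). The same 41 all met a WT4 peak (0%, against 11.2%). In the other direction, 28 of 65 WT2 peaks met no WT peak (43.1%, 31.8 to 55.2%, against 45.4%), and 21 of 59 WT4 peaks met none (35.6%, 24.6 to 48.3%, against 42.8%). Peaks that WT lacked were narrow, with a median width of 351 bp in WT2 and 386 bp in WT4. Of them, 21 and 16 lay in the second window. Between WT2 and WT4, 9 of 65 WT2 peaks (13.8%, against 20.9%) and 2 of 59 WT4 peaks (3.39%, against 13.8%) met no peak of the other list.

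These values read in opposite ways under the 2 placements. By the title codes WT is DMSO, and the windows had 28 peaks at 2 h and 21 at 4 h that DMSO lacked, with no DMSO peak missing at either time. By the record WT2 is DMSO and WT is 4 h, and 28 of 65 DMSO peaks were missing at 4 h, none were added, and the 2 h list lacked 9 and added 2. The direction of any camptothecin difference in parent cells cannot be told apart from the placement. With every list shortened to the 14205 most significant peaks that WT holds in all, the share of WT2 peaks without a WT peak was 15.9%. The same share over the whole shortened list was not computed.

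In the knockout cells the shares were smaller than those of WT2 and WT4 peaks without a WT peak, and peaks differed in both directions. Of 54 KO_2 peaks, 9 met no KO peak (16.7%, against 23.1%) and 10 met no KO_4 peak (18.5%, against 24.0%). Of 49 KO peaks, 5 met no KO_2 peak (10.2%, against 16.5%) and 8 met no KO_4 peak (16.3%, against 21.4%). Of 52 KO_4 peaks, 8 met no KO peak (15.4%, against 20.6%) and 8 met no KO_2 peak (15.4%, against 16.5%). All 6 shares were below those of the whole lists. By the title codes KO is DMSO, and by the record KO_2 is. Between 5 and 10 peaks were thus added or missing at either time under both placements. Between WT4 and WT2, by the record 2 h and DMSO, the shares were 3.39% and 13.8%. Those were smaller than the 15.4% and 18.5% between KO_4 and KO_2.

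Parent and knockout were compared at the same treatment. In the pair WT and KO (DMSO by the title codes, 4 h by the record), 2 of 41 WT peaks met no KO peak (4.88%, against 11.6%) and 9 of 49 KO peaks met no WT peak (18.4%, against 35.2%). In the pair WT2 and KO_2 (2 h by the title codes, DMSO by the record), 18 of 65 WT2 peaks met no KO_2 peak (27.7%, against 26.4%) and 1 of 54 KO_2 peaks met no WT2 peak (1.85%, against 15.4%). In the pair WT4 and KO_4 (4 h by the title codes, 2 h by the record), 14 of 59 WT4 peaks met no KO_4 peak (23.7%, against 30.2%). None of the 52 KO_4 peaks lacked a WT4 peak (0%, interval 0 to 6.88%, against 19.4%). All but 1 of the KO_2 peaks of the windows thus met a WT2 peak, and all KO_4 peaks met a WT4 peak. Peaks of KO were not set against those of WT2 or WT4 in this way. With lists of equal length the shares for WT and KO turned round, to 17.1% of WT peaks and 5.71% of KO peaks. The shares over the whole shortened lists were not computed, so whether this turn is particular to the windows is not known.

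The 35 regions held by all 6 lists allow the signal to be compared without asking whether a peak was called. Their median width was 561 bp in WT, 1075 bp in WT2 and 1011 bp in WT4, and 633, 639 and 561 bp in KO, KO_2 and KO_4. The other 11035 regions held by all 6 lists had median widths of 413, 681 and 688 bp in the parent lists and 517, 550 and 492 bp in the knockout lists.

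**Figure D2:**
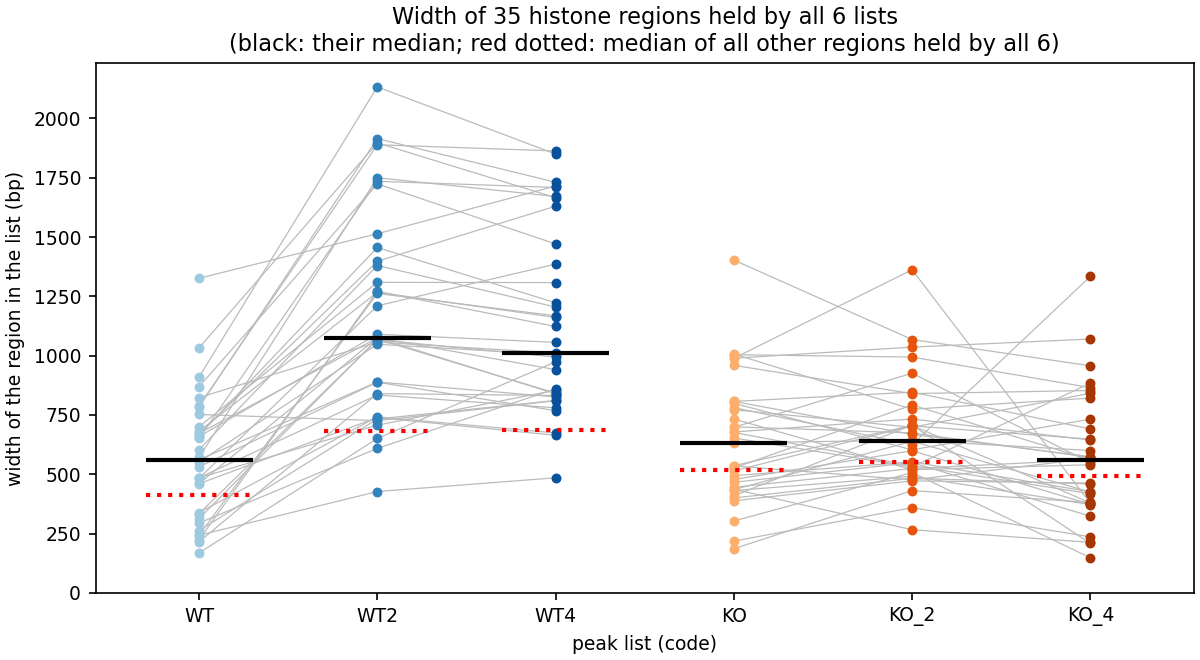
Width in bp (vertical axis) of the 35 histone regions held by all 6 lists, by list (horizontal axis), with grey lines joining a region across the lists of a genotype, black bars for their medians and red dotted bars for the medians of the 11035 other regions held by all 6 lists. The black bars of WT2 and WT4 lie at 1075 and 1011 bp, and those of the other 4 lists between 561 and 639 bp.

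Nearly every one of these regions was wider in WT2 and WT4 than in WT. The same held for most other regions, with 92.4% wider in WT2 and 90.1% wider in WT4. The ratio of widths WT2 over WT had a median of 2.09 (1.84 to 2.40), against 1.55 at the other regions. It was above 1 in 34 of 35 regions. It reached 2 in 19 of 35 (54.3%, against 27.5% of all regions held by all 6 lists). For WT4 over WT the median was 1.99 (1.70 to 2.44), against 1.54, with 15 of 35 at 2 or more (42.9%, against 28.1%). The WT peak lay wholly inside the WT2 peak in 33 of 35 regions and inside the WT4 peak in 34 of 35. How often this held at the other regions was not counted. The WT2 peak reached past the WT peak by a median of 234 bp on the side of lower coordinates and 259 bp on the other. The added width was thus shared by both edges.

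Ratios of width among the knockout lists were nearer to 1 than those of WT2 or WT4 over WT. KO_2 over KO had a median of 1.08 (0.904 to 1.22) and KO_4 over KO one of 0.863 (0.787 to 1.06). KO_4 over KO_2, by the record 2 h over DMSO, had a median of 0.870 (0.772 to 0.950), against 0.922 elsewhere. WT4 over WT2, the same contrast in the parent, had a median of 0.935 (0.904 to 0.986), against 1.00 elsewhere. In each of the first 2 comparisons 1 of 35 regions reached a ratio of 2, or 2.86%, against 3.64% and 2.08% over all regions held by all 6 lists. Between genotypes, WT over KO had a median of 0.982 (0.792 to 1.10), with 0 of 35 regions at 2 or more, against 0.958%. WT2 over KO_2 had a median of 1.78 (1.55 to 2.03), against 1.20 elsewhere, and 12 of 35 regions were at 2 or more (34.3%, against 6.67%). WT4 over KO_4 had a median of 1.83 (1.75 to 2.20), against 1.32, and 17 of 35 were at 2 or more (48.6%, against 15.1%).

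The regions of the windows were also wider than the others in WT, so the ratios were also read by width in WT. Among regions of 600 to 900 bp in WT, the 13 of the windows had a median WT2 over WT width of 1.98, and the 2037 others one of 1.27. Among regions under 400 bp in WT, the 10 of the windows had a median of 3.30 and the 5213 others 1.99. The windows' regions were wider in WT2 relative to WT than the others of their class in all 4 width classes, of which the widest, from 900 bp, held 3 regions of the windows.

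Summit pileup, like width, was highest in WT2 and WT4, here with WT4 above WT2. Its median at the 35 regions was 19.0 reads in WT, 69.0 in WT2 and 80.0 in WT4, and 21.0, 26.0 and 20.0 in KO, KO_2 and KO_4. At the other 11035 regions it was 20.0, 49.0 and 59.0 in the parent lists and 26.0, 30.0 and 24.0 in the knockout lists. The windows thus lay below the other regions in WT and the knockout lists and above them in WT2 and WT4.

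**Figure D3:**
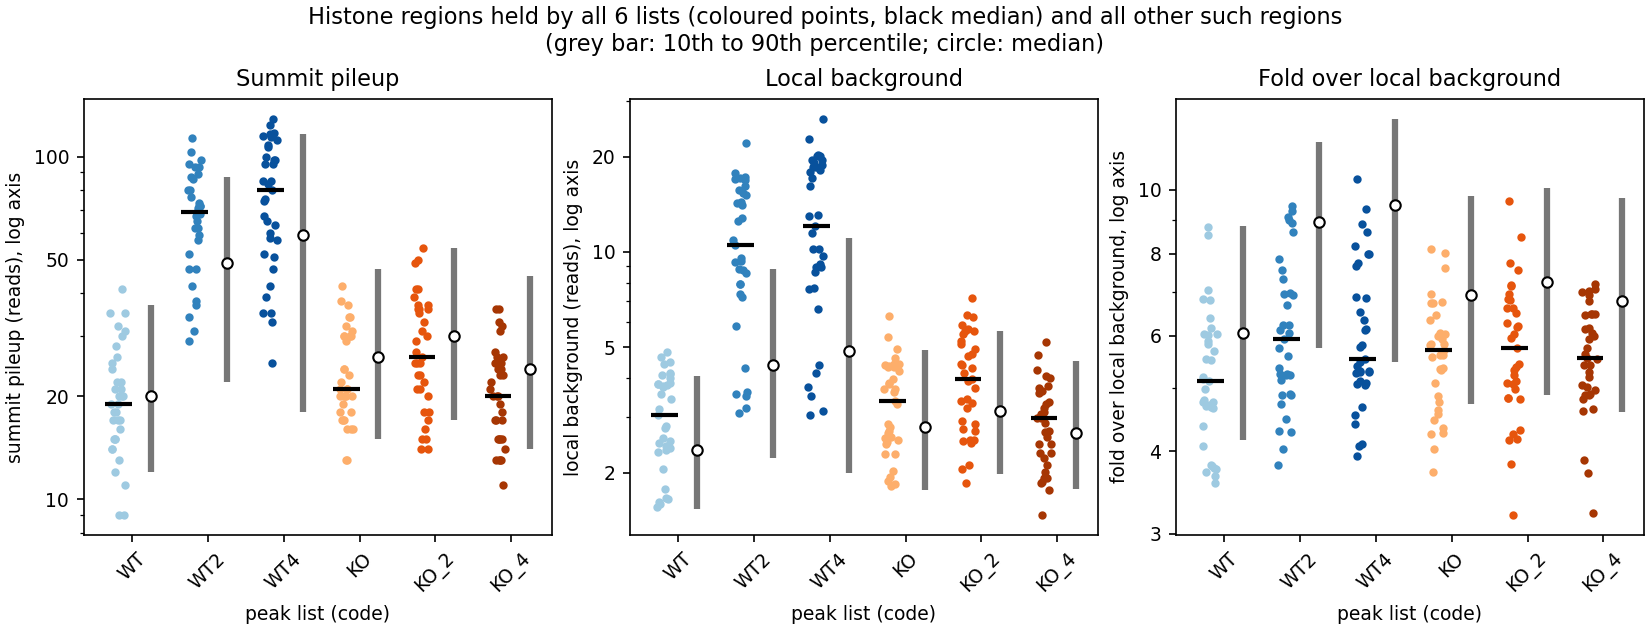
Summit pileup, local background (both in reads) and fold over local background of the 35 histone regions held by all 6 lists (coloured points, black bars for medians), by list, on log axes. Grey bars give the 10th to 90th percentile and circles the median of the 11035 other such regions. The black bars of WT2 and WT4 lie above the circles for pileup and background and below them for fold.

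The pileup of WT2 was at least 2 times that of WT in 35 of 35 regions (100%, against 70.3% of all regions held by all 6 lists), with a median ratio of 3.26 (3.10 to 3.43) against 2.38 elsewhere. That of WT4 was at least 2 times that of WT in 35 of 35 as well (against 73.4%), with a median of 3.77 (3.33 to 4.29) against 2.85. Against the knockout, the median was 2.32 (2.10 to 2.60) for WT2 over KO_2, against 1.59, and 27 of 35 regions were at 2 or more (77.1%, against 20.5%). For WT4 over KO_4 it was 3.48 (3.13 to 3.80), against 2.35, and 34 of 35 were at 2 or more (97.1%, against 63.4%). WT over KO had a median of 0.865 (0.789 to 0.950), and 0 of 35 regions were at 2 or more (against 0.145%). Within the knockout the medians were 1.17 for KO_2 over KO, with 1 region at 2 or more (2.86%, against 1.56%), and 0.895 for KO_4 over KO, with 0 (against 0.425%).

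Local background set the windows apart most. Its median at the 35 regions was 3.04 reads in WT, 10.5 in WT2 and 12.1 in WT4, and 3.38, 3.95 and 2.98 in KO, KO_2 and KO_4. The other regions had medians of 2.37, 4.39 and 4.88 in the parent lists and 2.80, 3.15 and 2.67 in the knockout lists. The ratio of WT2 to WT was 3.64 (3.19 to 3.84) at the median, against 1.85, and 33 of 35 regions were at 2 or more (94.3%, against 36.8%). That of WT4 to WT was 4.21 (3.65 to 4.48), against 2.06, with 33 of 35 at 2 or more (94.3%, against 53.2%).

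Against the knockout list of the same treatment, background again stood apart. WT2 over KO_2 had a median background ratio of 2.76 (2.38 to 3.02), against 1.38, and 29 of 35 regions reached 2 (82.9%, against 2.66%). WT4 over KO_4 had a median of 4.32 (3.75 to 4.90), against 1.82, and 31 of 35 reached 2 (88.6%, against 40.2%). No region, in the windows or elsewhere, reached 2 for KO_2 over KO, KO_4 over KO or WT over KO (0% in each). In 30 of 35 regions the WT2 over KO_2 ratio exceeded 1.75, the 90th percentile of the other regions.

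**Figure D4:**
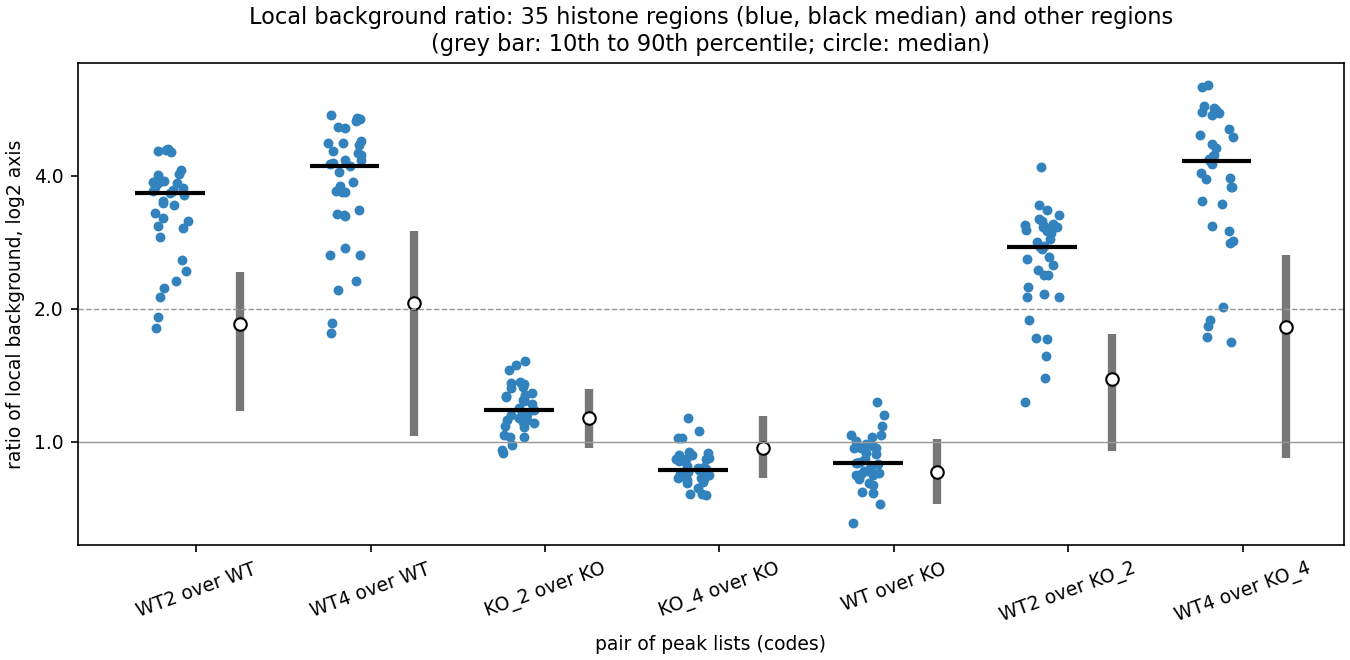
Ratio of local background between lists (vertical log2 axis) at the 35 histone regions held by all 6 lists (blue points, black bars for medians), for 7 pairs of lists, beside the 10th to 90th percentile (grey bars) and median (circles) of the 11035 other regions. The solid line marks a ratio of 1 and the dashed line 2. In the 4 pairs with WT2 or WT4 over WT or a knockout list, the black bars lie above the grey bars, and in the other 3 pairs they lie within them.

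Fold moved the least, since the pileup and the background it divides were both higher. Its median ratio was 1.10 (1.02 to 1.30) for WT2 over WT, against 1.40 elsewhere, and 1.18 (1.08 to 1.30) for WT4 over WT, against 1.48. For WT2 over KO_2 it was 1.01 (0.917 to 1.23), against 1.19, and for WT4 over KO_4 it was 1.07 (0.933 to 1.16), against 1.33. By fold, the windows thus differed less between these lists than the other regions did, and by pileup, background and width they differed more.

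How far around a peak the caller took its background is not given in the sources used here, and in a dense cluster the background may include reads of neighbouring peaks. Whether neighbouring reads account for any of the ratios was not tested. Regions were also read by the number of other regions with a midpoint within 10 kb, a choice made after the values were seen. Among regions with 1 such neighbour, WT2 over WT background had a median of 3.71 at 15 regions of the windows and 1.89 at 2440 others. With 2 to 3 neighbours the medians were 3.67 at 18 regions of the windows and 1.90 at 785 others. WT2 over KO_2 gave 3.00 against 1.41 with 1 neighbour and 2.69 against 1.39 with 2 to 3. With 0 neighbours, WT2 over WT background was 3.48 at 1 region of the windows, and its median was 1.85 at 7575 others. With 4 or more it was 2.32 at 1 region of the windows, and its median was 0.985 at 235 others. Neighbours were counted without regard to their width or signal, so these values do not test what their reads add.

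The high background did not extend to every region of the windows. At chr6:27661771-27662158, held by WT2 and WT4 only, it was 1.30 reads in WT2 and 1.26 in WT4, near the lowest value of either list. At chr6:27440243-27441218 it was 3.55 in WT2 and 3.50 in WT4, against 1.59 in WT. The highest backgrounds in WT2 and WT4 at the 35 regions were 22.1 and 26.4 reads, and the lowest were 3.10 and 3.06. In WT the background ran from 1.56 to 4.81 reads over the same regions.

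Both windows showed higher local background in WT2 and WT4, and its ratio to the knockout was smaller in the stretch between them. For WT2 over KO_2, the median background ratio was 2.99 at the 20 regions of the first window, 2.38 at the 15 of the second, 1.60 at the 9 between them, and 1.46 at 602 regions on the rest of chromosome 6. For WT4 over KO_4 the same medians were 4.54, 3.45, 2.30 and 1.77. The pileup of WT2 and of WT4 exceeded that of the facing knockout list in 20 of 20 regions of the first window and 15 of 15 of the second. On the rest of chromosome 6 it did so in 538 of 602 regions for WT2 and 517 of 602 for WT4. Over all 11035 other regions held by all 6 lists the shares were 88.7% and 86.7%. Between the windows it did so in 9 of 9 regions, at median ratios of 2.00 for WT2 and 2.35 for WT4. Not every measure was smaller there. The median width ratio of WT4 over KO_4 was 2.06 between the windows, against 2.01 in the first and 1.77 in the second, and the median pileup ratio of WT4 over WT was 3.37, against 4.16 and 3.36.

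Read as treatments, these signals again depend on the placement. By the title codes, parent cells at 2 h and 4 h of camptothecin had median pileups 3.26 and 3.77 times those in DMSO at the 35 regions, and knockout cells 1.17 and 0.895 times. At the other regions these medians were 2.38 and 2.85 times in the parent, and 1.14 and 0.955 times in the knockout. By the record, the 2 h parent list had 1.09 times the pileup of DMSO (0.991 to 1.18), against 1.16 at the other regions. The 2 h knockout list had 0.800 times (0.722 to 0.857), against 0.833. The recorded DMSO list of the parent then had 3.26 times the pileup of its 4 h list. Whether these ratios differ between genotypes beyond the variation of repeated libraries was not tested, as there was 1 library in each group.

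The place of the highest summit differed more between lists within the windows than elsewhere. In a region with several summits it need not be the same summit in each list. Regions were not matched here by width or number of summits. The position of the summit of highest pileup differed between 2 lists by a median of 73.0 to 101 bp over the 9 pairs of lists compared, against 34.0 to 49.0 bp at the other regions. Between WT and KO, 17 of 35 regions had the summit within 100 bp, against 74.2% elsewhere. WT2 and WT4 listed a median of 3.00 summits in a region of the 35, against 1.00 in WT and 2.00 in each knockout list. At the other regions the median was 1.00 in every list. Neighbouring summits of 1 peak lay a median of 229 bp apart in WT2 and 230 bp in WT4, near the 213 and 215 bp of other peaks, and 178 to 202 bp apart in the other lists.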

How the data were processed

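Each of the 6 ATAC-seq libraries has 1 peak list on hg19, per the submitters' processing notes, which also name MACS2 2.1.2, Picard 2.9.2, SAMtools 1.8, BWA 0.7.17, Trimmomatic 0.39 and Trim Galore 0.6.2. How reads were extended, deduplicated and set against background is not given in the sources used here, and can move peak edges. The authors deposited for each entry a score, a fold (a ratio over local background), and -log10 p and -log10 q, in lists that end at a q of 0.01. Overlapping entries of a list were merged, keeping the highest fold, and peaks of all lists on chromosomes 1 to 22 and X were merged into union regions (overlap of at least 1 bp). Pileup and background were solved from fold and p under a Poisson model, taking the entry of highest pileup in a region. Scripts used Python 3.11.15, numpy 2.4.6, pandas 2.3.3 and scipy 1.17.1, and were tested on simulated lists. Each group has 1 library, and no test was run.

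Regions were named by rule: in each window the 5 with the highest lowest fold among those in all 6 lists, the 3 widest, those of 1 genotype only, and those that all lists but 1, or 1 list alone, held (up to 5 of highest fold in a list); the text gives some of each. Windows, rules and comparisons were chosen with earlier results of these data known. Alternatives were a stricter q, equal list lengths, unmerged entries, a larger overlap, wider windows and the title-code placement. Another 4 were added after the data were seen: the entry of highest fold, a stricter q at shared regions, and each window alone.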

Additional observations from a re-analysis of the deposited data

Results flagged for a closer look

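At the 35 regions of the histone windows held by all 6 lists, the parent and knockout lists differed in opposite directions under the same contrast in several cases, and none of these differences was tested. By the recorded placement, the 2 h list had a median pileup 1.09 times that of DMSO in the parent and 0.800 times in the knockout, and a median local background 1.13 times and 0.738 times. By the title codes, the 4 h list stood against DMSO at 1.99 times the width in the parent and 0.863 times in the knockout. Pileup was then 3.77 times and 0.895 times, and local background 4.21 times and 0.861 times. The other 11035 regions held by all 6 lists differed in the same opposite directions. By the record their medians were 1.16 and 0.833 for pileup, and 1.09 and 0.853 for background. By the title codes they were 1.54 and 0.971 for width, 2.85 and 0.955 for pileup, and 2.06 and 0.965 for background. In the windows the interval reached 1 for pileup of WT4 over WT2 (0.991 to 1.18). It also did for width (0.787 to 1.06) and pileup (0.826 to 1.00) of KO_4 over KO. Each direction rests on 1 library.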

How the results depend on the processing

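Of 214 values recomputed under an alternative, 181 stayed within their error or within 1.5 times and 33 moved. The record gave 7 comparisons, each with a share of missing and a share of added peaks. Which share was larger turned round in 5 of 7 by the title codes. With lists of equal length it turned round in 3 of 7 (WT2 with WT4, KO_2 with KO_4, and WT with KO). Under the other alternatives it did so in 0 of 7. Why values moved was not tested, except where the setting itself shows it. With entries as deposited, WT2 and WT4 held 169 and 153 entries in the windows, of median width 1210 and 1123 bp and median fold 4.28 and 4.47, since each summit is then an entry of its own. With a -log10 q of at least 5, the median fold was 5.75 in KO_2, 0% of KO_2 peaks met no WT2 peak and 36.5% of WT4 peaks met no KO_4 peak. With lists of equal length, the median width was 1062 bp in WT2, the median fold was 5.84 in WT2 and 5.85 in KO_2, and WT, WT4, KO and KO_4 held 77.1%, 93.8%, 72.9% and 75% of the regions. The shares without a peak in the other list were then 4.55% for WT2 against WT4, 15.9% for WT2 against WT, 17.1% for WT against KO and 5.71% for KO against WT. Shares over whole lists were not computed at equal length or at the stricter q. By the title codes, the parent lacked 0% of DMSO peaks and added 43.1% at 2 h, lacked 0% and added 35.6% at 4 h, and the knockout lacked 10.2% at 2 h. The knockout then lacked 4.88% of parent peaks and added 18.4% in DMSO, and lacked 23.7% and added 0% at 4 h. With the second window alone, the background ratios were 3.16 for WT2 over WT, 3.34 for WT4 over WT, 2.38 for WT2 over KO_2 and 3.45 for WT4 over KO_4. A test over the 3 parent and knockout pairs of lists was not run. Many peaks rest on few reads, with a median pileup of 18.0 to 20.0 over the windows' entries in WT and the knockout lists, so that the absence of a peak there is uncertain. No replicate could be left out.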
